A study of Mus musculus with 6 samples.

Results

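The transcripts of 10 regulators of apoptosis from the BCL2 family were followed in bone marrow-derived macrophages (BMDMs) in which the gene of ATP citrate lyase (*Acly*) was deleted. The genes were taken by name, *Bcl2*, *Bcl2l1*, *Mcl1*, *Bax*, *Bak1*, *Bid*, *Bcl2l11*, *Bbc3*, *Pmaip1* and *Bnip3l*. Each was represented by its RefSeq transcript with the highest total count, which gave 10 of the 24562 gene symbols in the table. RNA was sequenced from unstimulated (naive) BMDMs, in 3 control and 3 AclyM-KO libraries. The series' design text calls the mice female, whereas the study's reporting summary names both sexes for its in vitro work. AclyM-KO mice carried loxP-flanked *Acly* alleles on a C57Bl/6J background and Cre recombinase driven by the *Lyz2* promoter (LysMcre), which acts in macrophages, monocytes and neutrophils. The labels call the control mice WT, and the study describes the controls of its transplants as littermates with floxed alleles and no Cre. The labels give no age for these mice, and the reporting summary gives only an age range for all in vitro work. Marrow cells of both groups were grown into macrophages in medium conditioned by L929 cells, which supplies their growth factor. The study's legends call such triplicates technical replicates of pooled mice, so the p-values measure the spread between these libraries and not that between mice.

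Proteins of the BCL2 family set the threshold for apoptosis at the outer membrane of mitochondria. The effectors BAX and BAK1 form pores there and release cytochrome c, and the survival proteins BCL2, BCL-XL (encoded by *Bcl2l1*) and MCL1 bind and restrain them. BH3-only proteins such as BIM (*Bcl2l11*), PUMA (*Bbc3*), NOXA (*Pmaip1*) and BID relay stress, loss of growth factor or p53 activity to this machinery. BIM is known as a mediator of the death of myeloid cells after withdrawal of their growth factors, and MCL1 as a survival protein of macrophages.

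The total over all transcripts lay between 19327459 and 23582992 counts in control libraries, was 19797218 and 19867137 in AclyM-KO replicates 1 and 3, and reached 44507233 in AclyM-KO replicate 2. *Acly*, in counts scaled to a common library size (CPM), fell by 1.25 on the log2 scale in AclyM-KO libraries (adjusted p = 3.82e-07 in edgeR), with no overlap between the groups. All 8 macrophage markers examined were detected in every library. Of these, *Csf1r*, *Mertk* and *Lyz2* (the insertion site of Cre) were lower in AclyM-KO libraries by edgeR, whereas *Adgre1*, *Cd68*, *Itgam*, *Cd14* and *Fcgr1* did not pass (log2 fold changes from -0.18 to 0.16). The summed level of the 8 markers was 21670 to 22660 CPM in control and 12660 to 15290 CPM in AclyM-KO libraries, of which *Lyz2* alone was 13310 ± 459.6 CPM in control and 6437 ± 731 CPM in AclyM-KO libraries (SD, n = 3 each). Markers of B and T lymphocytes summed to at most 0.567 CPM in any library, with *Pax5*, *Cd3e* and *Cd3g* at 0 throughout, and markers of stromal cells to at most 0.302 CPM, with *Col3a1*, *Pdgfra* and *Lum* at 0. Dendritic cell markers summed to 0.870 to 2.01 CPM, mast cell and basophil markers to 0.091 to 0.567 CPM with *Fcer1a* and *Tpsb2* at 0, and neutrophil and precursor markers to 23.8 to 26.3 CPM in control and 24.4 to 24.6 CPM in AclyM-KO libraries. Of 10 proliferation markers, 9 were higher in AclyM-KO libraries by edgeR (4 without control replicate 1 and 5 without control replicate 2), and they summed together to 630.8 to 727.4 CPM in control libraries and to 869.8, 1228 and 934.7 CPM in AclyM-KO replicates 1, 2 and 3. In bulk RNA, a change in the share of cells of one kind and a change of RNA per cell cannot be told apart.

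Promoter windows of the members whose transcripts changed, and of *Bmf*, a further BH3-only gene described with them, show the sequence upstream of each start. RefSeq windows of 300 bases (250 before and 50 after a start, build GRCm38.p6) were at hand for 8 of the 10 members. For each gene, the window nearest to the start of the counted transcript is printed 5′ to 3′ on the strand of the gene. They are *Bcl2* at chr1:106714241-106714540 (minus strand), *Bcl2l1* at chr2:152830668-152830967 (minus strand), *Bcl2l11* at chr2:128125788-128126087 (plus strand) and *Bmf* at chr2:118549637-118549936 (minus strand). Capitals mark 3 of the motifs searched on both strands, namely the forkhead motif TGTTTAC, the GC box GGGCGG and the CCAAT box, and adjoining copies may overlap.
Bcl2: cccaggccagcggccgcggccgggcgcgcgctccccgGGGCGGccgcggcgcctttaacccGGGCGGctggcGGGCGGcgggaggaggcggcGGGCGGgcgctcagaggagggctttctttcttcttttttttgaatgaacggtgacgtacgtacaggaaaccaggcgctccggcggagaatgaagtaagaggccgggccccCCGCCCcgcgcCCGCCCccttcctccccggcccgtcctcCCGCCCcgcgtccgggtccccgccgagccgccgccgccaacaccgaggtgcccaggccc
Bcl2l1: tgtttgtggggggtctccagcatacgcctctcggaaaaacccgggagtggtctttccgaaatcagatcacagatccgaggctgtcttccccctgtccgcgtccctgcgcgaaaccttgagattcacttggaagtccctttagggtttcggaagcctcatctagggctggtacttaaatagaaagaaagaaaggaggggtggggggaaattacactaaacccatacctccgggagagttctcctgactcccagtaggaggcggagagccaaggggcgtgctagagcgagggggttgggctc
Bcl2l11: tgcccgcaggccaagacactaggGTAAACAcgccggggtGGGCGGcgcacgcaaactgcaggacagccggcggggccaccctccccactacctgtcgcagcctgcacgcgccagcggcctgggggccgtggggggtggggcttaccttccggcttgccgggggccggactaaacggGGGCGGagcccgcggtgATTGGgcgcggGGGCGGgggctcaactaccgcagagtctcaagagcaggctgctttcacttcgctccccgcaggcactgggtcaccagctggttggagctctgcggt
Bmf: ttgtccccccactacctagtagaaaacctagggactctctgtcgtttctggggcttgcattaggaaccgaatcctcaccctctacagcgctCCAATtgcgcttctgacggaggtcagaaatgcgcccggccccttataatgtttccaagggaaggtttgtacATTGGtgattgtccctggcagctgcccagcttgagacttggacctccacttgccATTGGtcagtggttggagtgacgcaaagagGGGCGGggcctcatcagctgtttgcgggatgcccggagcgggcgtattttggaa
The *Bcl2* window held 7 GC boxes in 76.0% G and C bases, and the *Bcl2l1* window held none of the motifs at 55.7% G and C. The *Bcl2l11* window held 1 forkhead motif (written GTAAACA on this strand, at base 24 of the window), 3 GC boxes and 1 CCAAT box, and the *Bmf* window held 3 CCAAT boxes and 1 GC box. Among all 32851 windows of the same length, 3.6% held the forkhead motif, 35.7% the GC box and 37.4% the CCAAT box. A forkhead motif was found for 2 members, in 1 of the 2 windows of *Bcl2l11* and 1 of the 3 windows of *Bbc3*, where the share of 3.6% is per window and not per gene. The cyclic AMP response element TGACGTCA (1.8% of all windows) and the sterol element TCACNCCAC (1.2%) were in no window of the members. These matches describe letters in the windows, and binding was not measured.

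All 10 members passed the filter on low counts and were tested among 11470 genes with edgeR's quasi-likelihood test. At an adjusted p of 0.05 or less, *Bcl2* and *Bcl2l1* were higher and *Bcl2l11* was lower in AclyM-KO macrophages, and the other 7 did not pass. The 3 calls make up 30.0% of the members, where 12.4% of all tested genes were called, 6.7% as higher and 5.67% as lower. The groups did not overlap for 5 members, *Bcl2*, *Bcl2l1* and *Bak1* above and *Bcl2l11* and *Mcl1* below control, and did not overlap for 32.8% of all tested genes. The median log2 fold change of the 10 members was 0.05, beside 0.00026 for all genes, with a range from -0.35 to 0.82.

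**Figure D1:**
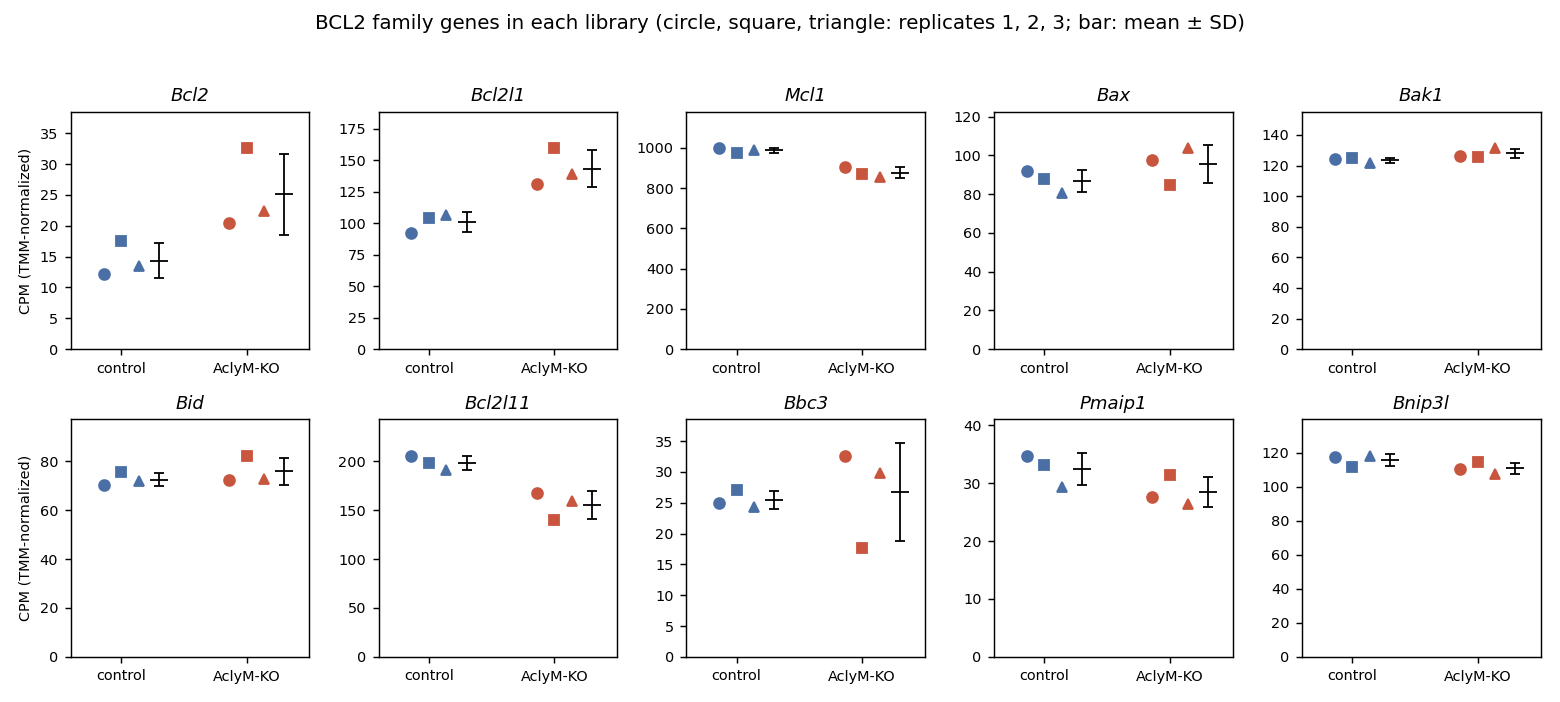
TMM-normalized CPM (vertical axis, from 0) of the 10 genes in each control (blue) and AclyM-KO (red) library; circles, squares and triangles are replicates 1, 2 and 3, and the black bars are mean ± SD (n = 3). *Bcl2* and *Bcl2l1* are higher and *Bcl2l11* is lower in every AclyM-KO library than in every control library, and AclyM-KO replicate 2 (red square) is the lowest point for *Bbc3*, at 17.7 CPM.

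Of the survival genes, *Bcl2* (NM_009741, chromosome 1, 106538178 to 106714274, GRCm38) was weakly expressed. Replicates 1, 2 and 3 had 133, 235 and 149 counts (12.1, 17.6 and 13.4 CPM) in control and 234, 863 and 257 counts (20.4, 32.6 and 22.4 CPM) in AclyM-KO cells. Every AclyM-KO library was above every control library, with AclyM-KO replicate 2 the highest. The log2 fold change was 0.82 (standard error 0.189, 95% confidence interval 0.41 to 1.24, adjusted p = 0.0167 in edgeR), which is 1.77-fold. Without AclyM-KO replicate 2 it was 0.56 (adjusted p = 0.00279), and without control replicate 1 or control replicate 3 the adjusted p was 0.0810 or 0.0692. The other *Bcl2* transcript in the table, NM_177410, had 25 to 44 counts in control libraries and 47 to 156 in AclyM-KO libraries, and it rose by 0.76 on the log2 scale when all transcripts were tested (adjusted p = 0.0413 in edgeR). Reads on exons that transcripts of a gene share can be counted for each of them, so such values need not be independent. Exons of the antisense gene *D630008O14Rik* cover 6.1% of the exon bases of *Bcl2*, and the strand setting of the counting is not spelled out in the sources used here.

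*Bcl2l1* (NM_001289716, chromosome 2, 152780668 to 152831728), which encodes BCL-XL, had 92.3, 103.8 and 106.7 CPM in control replicates and 131, 159.7 and 139.2 CPM in AclyM-KO replicates. The groups were clearly apart, and AclyM-KO replicate 2 was again the highest. The means were 100.9 ± 7.63 CPM in control and 143.3 ± 14.8 CPM in AclyM-KO cells (SD, n = 3 each). On the log2 scale the increase was 0.51 (standard error 0.088, 95% confidence interval 0.32 to 0.70, adjusted p = 0.00353 in edgeR). This 1.42-fold increase passed the threshold of 0.05 with every library left out in turn, at 0.42 without AclyM-KO replicate 2. Of the 4 *Bcl2l1* transcripts in the table, 3 had nearly the same counts and NM_001289739 had 28.0% to 35.0% of those of the top transcript. All 4 were higher in AclyM-KO libraries, by 0.51 to 0.58 on the log2 scale. Because reads on shared exons can be counted for each transcript, the 4 rises are not independent.

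*Mcl1* (NM_008562, chromosome 3, 95658788 to 95663176), a survival gene with a short-lived protein, varied within a narrow range. Control replicates had 999.3, 973.3 and 989.5 CPM and AclyM-KO replicates 906.4, 869.5 and 853.3 CPM. All AclyM-KO libraries lay below all control libraries, but the log2 fold change of -0.17 (standard error 0.060, 95% confidence interval -0.30 to -0.04) had an adjusted p of 0.0846 in edgeR and did not pass. Without AclyM-KO replicate 2 the value was -0.16 and passed (adjusted p = 0.0116 in edgeR), and limma-voom with sample weights gave an adjusted p of 0.0109.

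The effectors *Bax* and *Bak1* did not pass the threshold. *Bax* (NM_007527, chromosome 7, 45461697 to 45466898) had 92.0, 87.6 and 80.6 CPM in control and 97.7, 84.8 and 103.8 CPM in AclyM-KO replicates. The groups overlapped through AclyM-KO replicate 2, and the log2 fold change was 0.13 (95% confidence interval -0.06 to 0.33, adjusted p = 0.366 in edgeR). Without that library it was 0.22 (adjusted p = 0.0170), and limma-voom with sample weights, in which every library stays, gave 0.20 (adjusted p = 0.0487). *Bak1* (NM_007523, chromosome 17, 27019810 to 27029009) had 124, 124.9 and 121.7 CPM in control and 126.4, 125.9 and 131.5 CPM in AclyM-KO replicates. These values did not overlap, but they lay so close that the log2 fold change was 0.05 (95% confidence interval -0.09 to 0.19, adjusted p = 0.674 in edgeR). Exons of *Ggnbp1* on the opposite strand cover 25.5% of the exon bases of *Bak1*, and those of *Gm45808*, on the same strand, cover 12.2% of the exon bases of *Bax*.

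Of the BH3-only members, *Bcl2l11* (NM_207680, chromosome 2, 128126038 to 128162547), which encodes BIM, fell in AclyM-KO cells. The control replicates had 2263, 2658 and 2123 counts (205.8, 198.6 and 191.5 CPM), and the AclyM-KO replicates had 1928, 3694 and 1827 counts (167.8, 139.6 and 159.4 CPM). Every AclyM-KO library was below every control library, with AclyM-KO replicate 2 the lowest. The log2 fold change was -0.35 (standard error 0.078, 95% confidence interval -0.52 to -0.19, adjusted p = 0.0121 in edgeR), a level of 78.2% of control. Without AclyM-KO replicate 2 it was -0.28 (adjusted p = 4.18e-04), and without control replicate 1 or control replicate 2 the adjusted p was 0.0725 or 0.0585. Of the 5 *Bcl2l11* transcripts in the table, the 3 with most reads (NM_207680, NM_207681 and NM_009754) fell by 0.35 to 0.36 on the log2 scale. NM_207681 and NM_009754 had 92.5% to 97.9% of the counts of NM_207680 in each library. Reads on exons they share can be counted for each, so the 3 falls are not independent. The remaining transcripts, NM_001291016 (-0.31, adjusted p = 0.199 in edgeR) and NM_001284410 (-0.22, adjusted p = 0.413 in edgeR), had between 5.15% and 8.10% of the counts of NM_207680 in each library and did not pass.

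*Bbc3* (NM_133234, chromosome 7, 16308393 to 16318205), which encodes the p53 target PUMA, had 24.9, 27.1 and 24.3 CPM in control replicates and 32.6, 17.7 and 29.8 CPM in AclyM-KO replicates. AclyM-KO replicates 1 and 3 were above every control library, and replicate 2 was below every one. The log2 fold change over all libraries was 0.04 with a wide 95% confidence interval of -0.38 to 0.46 (adjusted p = 0.922 in edgeR). Without AclyM-KO replicate 2 it was 0.30 (adjusted p = 0.0293), and without AclyM-KO replicate 1 it was -0.14 (adjusted p = 0.680), so that single libraries set its size and its sign.

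*Pmaip1* (NM_021451, chromosome 18), which encodes NOXA, a BH3-only protein that binds MCL1, had 34.7, 33.2 and 29.3 CPM in control and 27.7, 31.3 and 26.3 CPM in AclyM-KO replicates. The groups overlapped (log2 fold change -0.18, 95% confidence interval -0.41 to 0.05, adjusted p = 0.299 in edgeR). *Bid* (NM_007544, chromosome 6, 120891930 to 120916853), which links death receptors to mitochondria once its protein is cleaved, had 70.1, 75.5 and 71.9 CPM in control and 72.4, 82.3 and 72.8 CPM in AclyM-KO replicates. Its groups overlapped as well, with a log2 fold change of 0.07 (95% confidence interval -0.10 to 0.24, adjusted p = 0.626 in edgeR). Exons of *Bcl2l13* on the opposite strand cover 17.7% of the exon bases of *Bid*. *Bnip3l* (NM_009761, chromosome 14, 66985239 to 67008877), which encodes the mitophagy receptor NIX, had 117.3, 111.6 and 118.3 CPM in control and 110.4, 114.3 and 107.7 CPM in AclyM-KO replicates. The log2 fold change was -0.06 (95% confidence interval -0.21 to 0.08, adjusted p = 0.606 in edgeR), and AclyM-KO replicate 2 lay within the control range. Of these genes *Pmaip1* had the widest interval.

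**Figure D2:**
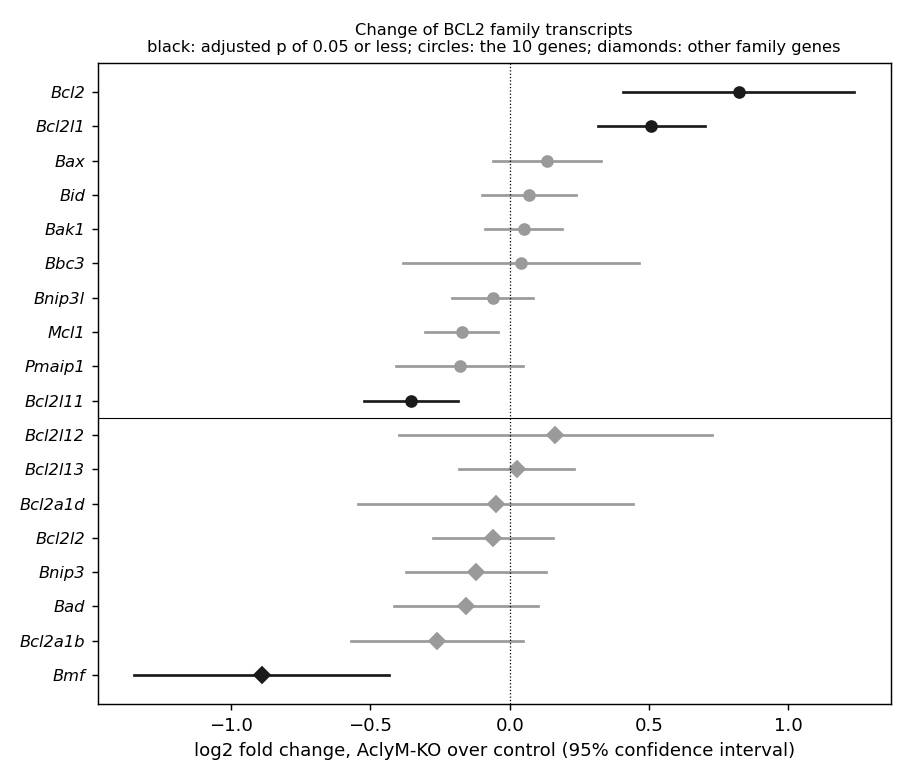
Log2 fold change of AclyM-KO over control (points) with its 95% confidence interval (lines) in edgeR for the 10 genes (circles) and the 8 tested genes among the other family members (diamonds); black marks an adjusted p of 0.05 or less and grey the others. *Bcl2* (0.82) and *Bcl2l1* (0.51) lie to the right of 0, and *Bcl2l11* (-0.35) and *Bmf* (-0.89) to the left.

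To compare levels between genes, CPM was divided by transcript length in kilobases, which gives RPKM. In control macrophages *Mcl1* was highest at 288.9 ± 3.85 RPKM (SD, n = 3), followed by *Bax* at 92.9 to 106.1 RPKM and *Bak1* at 51.8 ± 0.690 RPKM. *Bcl2l11* (39.5 ± 1.42 RPKM), *Bcl2l1* (39.3 ± 2.97), *Bnip3l* (35.7 ± 1.12) and *Bid* (33.1 ± 1.25) came next, and each of these overlapped its neighbour in the order. *Bbc3* at 14.0 ± 0.827, *Pmaip1* at 11.9 ± 1.02 and *Bcl2* at 2.0 ± 0.396 RPKM were each below the gene before them in all libraries. *Mcl1* was thus 144.6 times as abundant per length as *Bcl2*, and *Bcl2l1* lay between them among the survival genes. In AclyM-KO macrophages *Bcl2l1*, at 55.8 ± 5.76 RPKM, stood beside *Bak1* (53.6 ± 1.30 RPKM), with overlapping libraries, and *Bcl2l11*, at 30.9 ± 2.88 RPKM, had a lower mean than *Bid* (34.6 ± 2.56) and *Bnip3l* (34.2 ± 1.02), with overlapping libraries. *Bcl2* rose to 3.50 ± 0.911 RPKM and stayed last.

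**Figure D3:**
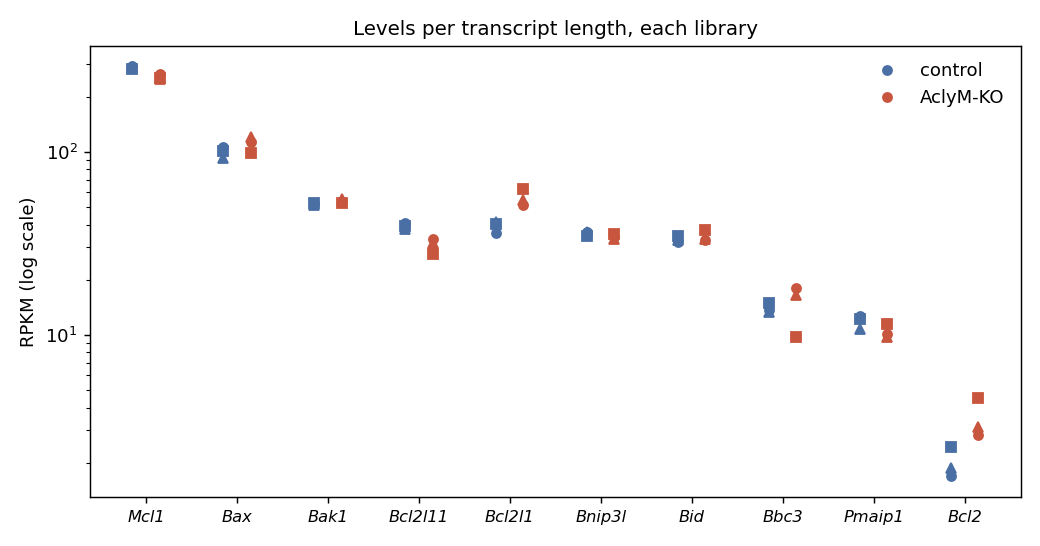
RPKM (log axis) of the 10 genes in each control (blue) and AclyM-KO (red) library, ordered by the control mean; circles, squares and triangles are replicates 1, 2 and 3. *Mcl1* is highest and *Bcl2* lowest in both groups, and *Bcl2l1* and *Bcl2l11*, which overlap in control libraries, are apart in AclyM-KO libraries.

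Ratios of a pro-apoptotic to a survival transcript were taken within each library, where they do not depend on its depth, and are given without a test. The ratio of *Bcl2l11* to *Bcl2l1* per length was 1.14, 0.976 and 0.915 in control replicates and 0.653, 0.446 and 0.584 in AclyM-KO replicates, so that BIM and BCL-XL transcripts were about as abundant in control cells and BIM was the rarer in AclyM-KO cells. The mean ratio of AclyM-KO libraries was 0.556 times that of control libraries. For *Bax* to *Bcl2* the ratios were 63.1, 41.4 and 49.7 in control and 39.8, 21.6 and 38.4 in AclyM-KO replicates. For *Bax* to *Bcl2l1* they were 2.95, 2.499 and 2.24 in control and 2.21, 1.57 and 2.21 in AclyM-KO replicates, with control replicate 3 next to AclyM-KO replicates 1 and 3. The ratio of *Bcl2l11* to *Mcl1*, at 0.137 ± 0.00453 in control and 0.120 ± 0.010 in AclyM-KO libraries (SD, n = 3 each), changed least of these 4. In these 4 ratios every AclyM-KO library was below every control library, and AclyM-KO replicate 2 was the lowest. Such ratios restate the members' own changes, and pairs share their survival gene. Over all 18 pairs of an effector or BH3-only member with a survival member, AclyM-KO libraries were below control in 11, above in 3 and overlapping in 4. No share for ratios of other genes stands beside these counts. With *Bcl2* or *Bcl2l1* as the survival gene 5 of 6 pairs each were below and 0 above, whereas with *Mcl1* 1 of 6 was below and 3 were above. The ratio of *Bax* to *Mcl1* was 0.363, 0.355 and 0.321 in control and 0.425, 0.385 and 0.480 in AclyM-KO replicates, and those of *Bak1* and *Bid* to *Mcl1* were likewise higher in every AclyM-KO library, at 1.167 and 1.179 times the control mean.

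**Figure D4:**
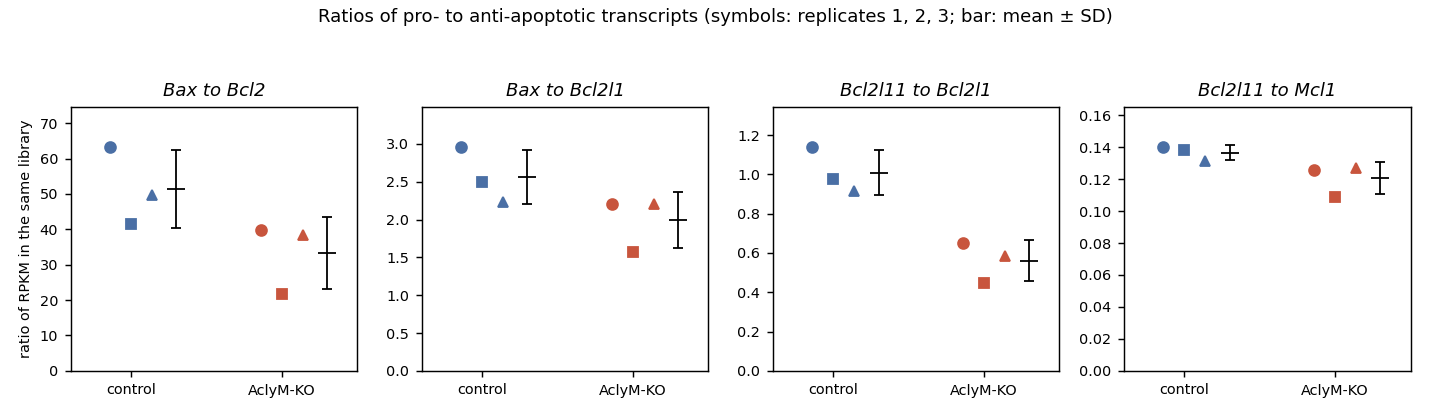
Ratio of RPKM within each library (vertical axes, from 0) for 4 of the 18 pairs of a pro-apoptotic and a survival transcript in control (blue) and AclyM-KO (red) libraries; circles, squares and triangles are replicates 1, 2 and 3, and the black bars are mean ± SD (n = 3). The *Bcl2l11* to *Bcl2l1* ratio is at least 0.915 in control libraries and at most 0.653 in AclyM-KO libraries.

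The remaining 15 genes of the family were examined in the same fit, and 8 of them passed the filter on low counts. *Bmf* (NM_138313, chromosome 2, 118528757 to 118549687), a BH3-only gene whose protein responds to loss of cell attachment, was the single call. Control replicates had 328, 356 and 348 counts (29.8, 26.6 and 31.4 CPM), against 249, 279 and 189 counts (21.7, 10.5 and 16.5 CPM) in AclyM-KO replicates. All AclyM-KO libraries were below all control libraries, most of all AclyM-KO replicate 2, the deepest library. The log2 fold change was -0.89 (standard error 0.208, 95% confidence interval -1.35 to -0.43, adjusted p = 0.0187 in edgeR), or 53.9% of the control level. Without AclyM-KO replicate 2 it was -0.61 (adjusted p = 3.43e-04). The adjusted p was 0.0640 without control replicate 1, 0.0700 without control replicate 3 and 0.0740 with no filter on low counts. The share called among these genes was 12.5%, beside 12.4% of all tested genes.

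The survival genes *Bcl2l2* (-0.06), *Bcl2a1b* (-0.26) and *Bcl2a1d* (-0.05), the BH3-only gene *Bad* (-0.16), the mitophagy receptors *Bnip3* (-0.12) and *Bcl2l13* (0.02) and *Bcl2l12* (0.16) did not pass, with adjusted p of 0.264 or more in edgeR. *Bcl2a1b* had 43.3, 51.9 and 55.7 CPM in control and 40.9, 50.5 and 33.2 CPM in AclyM-KO replicates. Limma-voom with sample weights called it, as did edgeR without AclyM-KO replicate 2. *Bcl2a1b* belongs to a cluster of near-identical copies between which reads can be lost or misplaced, and *Bcl2a1a* had 0 to 4 counts. The effector *Bok*, the BH3-only genes *Bik* and *Hrk*, and *Bcl2l14* and *Bcl2l15* had at most 5 counts in any library and were not tested. *Bcl2l10* had 0 counts in all libraries, which allows up to 0.113 CPM in AclyM-KO replicate 2 and 0.273 CPM in control replicate 1, counting error only. These are the largest and the smallest library after TMM normalization.

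Downstream of the mitochondria, caspase-9 is activated on APAF1 by cytochrome c, and inhibitor-of-apoptosis proteins hold the caspases back. Of 15 genes of this apparatus, all tested, 1 passed the threshold, a share of 6.67% beside 12.4% of all tested genes. *Birc3*, which encodes an inhibitor-of-apoptosis protein, had 50.6, 47.8 and 45.02 CPM in control and 38.9, 30.3 and 39.9 CPM in AclyM-KO replicates. The log2 difference of -0.41 had a 95% confidence interval of -0.65 to -0.17 (adjusted p = 0.0328 in edgeR), and the adjusted p was 0.141, 0.109 and 0.0793 without control replicate 1, 2 or 3. *Apaf1* did not pass at -0.26 on the same scale (adjusted p = 0.0687 in edgeR), though its groups did not overlap. *Casp9* (0.09, adjusted p = 0.518) and *Cycs* (0.46, adjusted p = 0.366) did not pass in edgeR either. Limma-voom with sample weights called *Apaf1*, and edgeR without AclyM-KO replicate 2 called *Apaf1* and *Casp9*. *Cycs*, the gene of cytochrome c, had 38 to 226 counts, and its reads may be split with, or lost to, processed copies of the gene. The median of this list was -0.06.

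In the death receptor pathway, which feeds into BID through caspase-8, 0 of 8 genes passed in edgeR and in DESeq2, and 0 had an unadjusted p below 0.05, beside 12.4% of all tested genes called in edgeR and 3142 of 11470 with an unadjusted p below 0.05. With limma-voom and sample weights 1 gene passed, *Tradd*, an adaptor of the TNF receptor, and without AclyM-KO replicate 2 edgeR called *Tradd* and *Cflar*, which encodes an inhibitor of caspase-8 (both named after their values were seen). Of 15 genes around p53, 14 were tested and 2 were higher, a share of 14.3% beside 12.4% of all tested genes. *Mdm2*, a p53 target whose product marks p53 for degradation, had 140.0, 134.8 and 127.4 CPM in control and 151.5, 201.6 and 161.8 CPM in AclyM-KO replicates, an increase of 0.36 on the log2 scale (adjusted p = 0.0344 in edgeR). *Pidd1*, whose product activates caspase-2, rose by 0.93 on the log2 scale from few counts (18 to 26 in control and 42 to 73 in AclyM-KO libraries, adjusted p = 0.0344 in edgeR). *Trp53* itself, at 51.9 ± 1.58 and 51.4 ± 5.29 CPM (SD, n = 3 each), differed by -0.02 on the log2 scale (95% confidence interval -0.22 to 0.18, adjusted p = 0.914 in edgeR). Without any 1 of the control replicates *Mdm2* (adjusted p from 0.0880 to 0.146 in edgeR) and *Pidd1* (0.0940 to 0.131) did not pass, and *Pidd1* also did not pass without AclyM-KO replicate 1 (0.0628) or 3 (0.0979). Without AclyM-KO replicate 2 both passed, with log2 fold changes of 0.23 for *Mdm2* and 1.13 for *Pidd1* (adjusted p = 0.00536 and 0.00343 in edgeR). The median of the tested p53 genes was 0.04. *Bax*, *Bbc3* and *Pmaip1*, which are known p53 targets among the 10 members, did not pass in edgeR with all libraries in the fit.

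Among 15 genes that act on the transcription or turnover of BCL2 family members, or bind them in mitochondria, 14 were tested, 1 was higher and 1 was lower, again 14.3% beside 12.4% of all tested genes. *Atf4*, a transcription factor of the integrated stress response, had 109.6, 129.4 and 113.9 CPM in control and 169, 242.1 and 182.7 CPM in AclyM-KO replicates. It rose by 0.75 on the log2 scale (adjusted p = 0.00302 in edgeR), with no overlap between the groups. *Itch*, which encodes a ubiquitin ligase, fell by 0.24 on the log2 scale (adjusted p = 0.0308 in edgeR), with adjusted p of 0.109, 0.103 and 0.147 without control replicate 1, 2 or 3 and 0.0840 without AclyM-KO replicate 3. The forkhead factors *Foxo1* (-0.18, adjusted p = 0.246) and *Foxo3* (-0.22, adjusted p = 0.353), known regulators of *Bcl2l11* that are named here after their values were seen, did not pass in edgeR. The median of the list was 0.01.

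AclyM-KO replicate 2, the library with the highest total, was the highest or lowest of its group for all members other than *Mcl1*, and for *Bmf*, as it was for 79.9% of all tested genes. It also had the highest summed level of proliferation markers. Its levels of *Lyz2* (5606 CPM), *Csf1r* (1733 CPM), *Mertk* (118.8 CPM) and *Cd68* (2267 CPM) were the lowest of all libraries. Those of *Itgam* (898.8 CPM) and *Fcgr1* (157.3 CPM) were the highest of all, and *Adgre1* (1656 CPM) lay within the control range. *Cd14* (218.7 CPM) was above every control library, as it was in AclyM-KO replicates 1 (230.5 CPM) and 3 (237.7 CPM). Without AclyM-KO replicate 2, 19.3% of all tested genes were called, and 6 of the 10 members, *Bcl2*, *Bcl2l1*, *Bax* and *Bbc3* as higher and *Bcl2l11* and *Mcl1* as lower. *Bcl2*, *Bcl2l1* and *Bcl2l11* were thus called with and without it, with smaller changes in its absence. The part of depth, proliferation or these macrophage markers in the members' values was not tested.

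**Figure D5:**
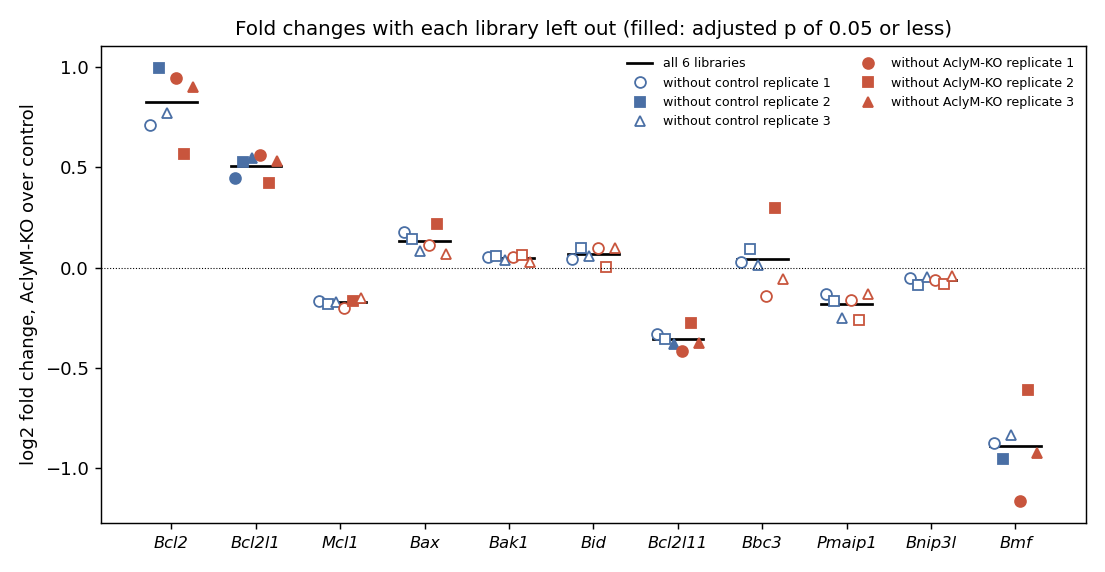
Log2 fold change of AclyM-KO over control for the 10 genes and *Bmf* over all 6 libraries (black lines) and with 1 control (blue) or AclyM-KO (red) library left out (points; circles, squares and triangles stand for replicates 1, 2 and 3; filled points have an adjusted p of 0.05 or less). *Bcl2l1* stays between 0.42 and 0.56, while *Bbc3* ranges from -0.14 to 0.30.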

How the data were processed

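The authors made strand-specific mRNA libraries with a KAPA HyperPrep kit from DNase-treated RNA and read them on an Illumina HiSeq. They aligned the reads to mm10 with STAR 2.5.2b, filtered the alignments on mapping quality with SAMtools and deposited raw counts per RefSeq transcript, made by HOMER2 with default settings. The deposited counts carry no normalization and no pooling of libraries, and the submitters' notes also name CASAVA 1.8.2. A further 6 value columns of the table were not used. The RefSeq release, and the strand setting that these defaults imply, are not given in the sources used here.

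Symbols came from RefSeq's GRCm38.p6 gene table (35440 of 35745 transcripts) and GENCODE M21 (188), and lengths and exon overlaps from GENCODE M21. The test was edgeR's robust quasi-likelihood test (version 4.0.16, R 4.3.3) with the group as factor, filterByExpr and TMM scaling and Benjamini-Hochberg adjustment over all 11470 genes tested. CPM and RPKM use TMM-normalized library sizes of 1 transcript per gene (11120034 to 25814853 counts before normalization). Alternatives used DESeq2 1.42.0 and limma 3.58.1. All members and *Bmf* are described, marker lists by counts and summed levels, and in the pathway lists the genes past the threshold plus *Trp53*, *Apaf1*, *Casp9*, *Cycs* and the remaining family genes; 1 further gene of this rule is not reported here. The members and lists were chosen with earlier results of these data known. The test was checked on simulated counts. Exact tests of 3 against 3 cannot give a p below 0.10 and were not used.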

Additional observations from a re-analysis of the deposited data

How the results depend on the processing

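*Bcl2l1* passed the threshold in all 17 alternatives (log2 fold change 0.42 to 0.56), *Bcl2* (0.56 to 1.0) and *Bcl2l11* (-0.42 to -0.28) in 14 of 17 each, and *Bmf* (-1.16 to -0.61) in 13 of 17. With each library left out, 1 to 4 members were higher and 0 to 2 lower. The same fits called 0 to 2 of the other family genes, 0 to 3 apoptosome and caspase genes, 0 to 2 death receptor genes, 0 to 4 p53 genes, 1 to 4 transcription and turnover genes and 4 to 10 proliferation markers, against 1, 1, 0, 2, 2 and 9 with all libraries. Fewer samples enter these fits. The only sign changes among the members were in *Bbc3* (-0.14 without AclyM-KO replicate 1 and -0.06 without AclyM-KO replicate 3, against 0.30 without AclyM-KO replicate 2). The 4 ratios kept their direction, with log2 differences without 1 library of -0.81 to -0.37 for *Bax* to *Bcl2*, -0.46 to -0.20 for *Bax* to *Bcl2l1*, -0.98 to -0.70 for *Bcl2l11* to *Bcl2l1* and -0.22 to -0.11 for *Bcl2l11* to *Mcl1*.

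At a threshold of 0.01, 1 member was higher and 0 lower, and 0 other family genes, 0 apoptosome and caspase genes, 0 p53 genes, 1 transcription and turnover gene and 5 proliferation markers were called. Limma-voom with sample weights called 3 members as higher and 2 as lower, 2 other family genes, 2 apoptosome and caspase genes, 1 death receptor gene, 4 p53 genes and 5 transcription and turnover genes. Without a filter on low counts, 0 other family genes and 2 apoptosome and caspase genes were called, and with total counts only 1 transcription and turnover gene. The causes were not tested. Over all genes, limma-voom called 2187, the fit without AclyM-KO replicate 2 called 2227, and fits without a control library 601 to 669, against 1418. With total counts only, 923 were higher and 514 lower, against 768 and 650. The edgeR fit without robust estimation, added after seeing the data, called the same number of members.

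Same-numbered libraries had deviations that correlated at 0.09, 0.11 and -0.05 for replicates 1, 2 and 3, so the numbers were not taken as pairs. With the replicate block, 1620 genes were called, and 2 members were higher and 1 lower, as without it.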
